A study of Mus musculus with 12 samples.

Results

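Chemokines and their receptors were followed across sensory neuron enriched fractions of mouse trigeminal ganglia (TG) and dorsal root ganglia (DRG). The members were taken by gene symbol. They were the Ccl, Cxcl and Xcl ligands, Cx3cl1, and the Ccr, Cxcr and Xcr receptors, which came to 57 of the 22609 genes counted (39 ligands and 18 receptors). The receptor Cx3cr1 lies outside this symbol rule and is given beside its ligand. The fractions came from naive mice labelled C57BL (C57BL/6J in the methods of the study) and 3 to 4 months old (the methods give another age range), with no transgene and no treatment. Each sex and ganglion had 3 libraries, which gave 4 groups. The methods place the females in estrous and the DRG at L3 to L5. They do not state how many animals were pooled per library or whether TG and DRG libraries share animals, so the spread between libraries may be partly technical. Ganglia were dissociated and enriched for neurons on a Percoll density gradient, which leaves other cells in the fraction.

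Chemokines are small secreted proteins that attract cells through G protein-coupled receptors, most of which signal through the inhibitory G protein Gi. The CC and CXC families are named for the spacing of their first cysteines. The Cx3cl1 protein (fractalkine) is a membrane-anchored chemokine that is shed by the proteases Adam10 and Adam17. Cxcl12 acts through Cxcr4 and is scavenged by the atypical receptor Cxcr7. In sensory ganglia, Ccl2 with its receptor Ccr2 and Cx3cl1 with Cx3cr1 on macrophages are known from work on pain after nerve injury. Several ligands share receptors, so the ligands are described by the receptor they bind.

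Reads assigned to genes ran from 7511765 to 15396090 per library. The floor was taken as 3 counts, which corresponded to 0.195 to 0.399 CPM on unscaled library totals. Apart from the floor, CPM is the count of a gene relative to the TMM-scaled total of its library. Neuron markers were at 1 CPM or more on average for 13 of 13 genes, with sums of 7200 to 12560 CPM. Macrophage (10 of 10), endothelial (7 of 7), fibroblast (6 of 6), satellite glia (3 of 3) and Schwann cell (7 of 7) markers were at that level too. Mast cell (5 of 5), pericyte and smooth muscle (4 of 5) and neutrophil (6 of 8) markers also reached 1 CPM on average. Of T cell markers 1 of 6 did, and of B cell markers 0 of 5. In such bulk libraries, fewer cells of a type and less RNA per cell cannot be told apart. Among the 26 members at 1 CPM or more, female DRG 1 held the highest value for 10 members. The lowest value fell in female DRG 3 for 6 members, in male TG 1 for 6 members and in female TG 3 for 5 members. The number of members at 0 counts ran from 18 to 37 per library and was highest in female TG 3.

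A mean of at least 1 CPM over the 12 libraries was reached by 26 of the 57 members (45.6%), against 13916 of all genes (61.6%). These were 21 ligands and 5 receptors. The ligands, by falling mean, were Cxcl12, Ccl11, Cxcl1, Cx3cl1, Ccl2, Ccl7, Cxcl16, Ccl3, Cxcl10, Cxcl2, Ccl9, Ccl6, Ccl27a, Ccl4, Ccl12, Cxcl9, Ccl24, Ccl5, Ccl8, Ccl1 and Ccl25. Among the receptors were Cxcr4, Cxcr7, Ccr2 and Ccr1. Another 18 members had counts in some library but stayed under 1 CPM. The remaining 13 were at 0 counts in all 12 libraries: the ligands Ccl19, Ccl20, Ccl21a, Ccl21b, Ccl21c, Ccl26, Ccl27b, Ccl28, Cxcl3, Cxcl15 and Cxcl17, and the receptors Ccr4 and Cxcr1. On unscaled totals, a count of 0 allows up to 0.195 to 0.399 CPM in a single library. Over the reads of all 12 libraries together it allows up to 0.0217 CPM. Both are for counting error only. Genes with near-identical copies such as the Ccl21 and Ccl27 genes lose reads that map to several places.

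Of the 26 members, 18 had counts in every library and 8 were at 0 in at least 1 library. The edge of the rule lay among sparse genes. Just inside it were Ccl8 (mean 1.13 CPM), Ccl1 (1.12 CPM) and Ccl25 (1.07 CPM). Just outside were Cxcl11 (0.852 CPM, at most 36 counts in a library), Cxcr3 (0.848 CPM, at most 27 counts), Ccl22 (0.712 CPM, at most 20 counts), Cxcl14 (0.590 CPM, at most 36 counts) and Ccr7 (0.533 CPM, at most 19 counts). Leaving out female DRG 1 took Ccl5 and Ccl8 below the line and left 24 members. Ccl1 fell below it without female DRG 3 or without male DRG 3, and Ccl25 without female TG 2 or without male TG 2.

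**Figure D1:**
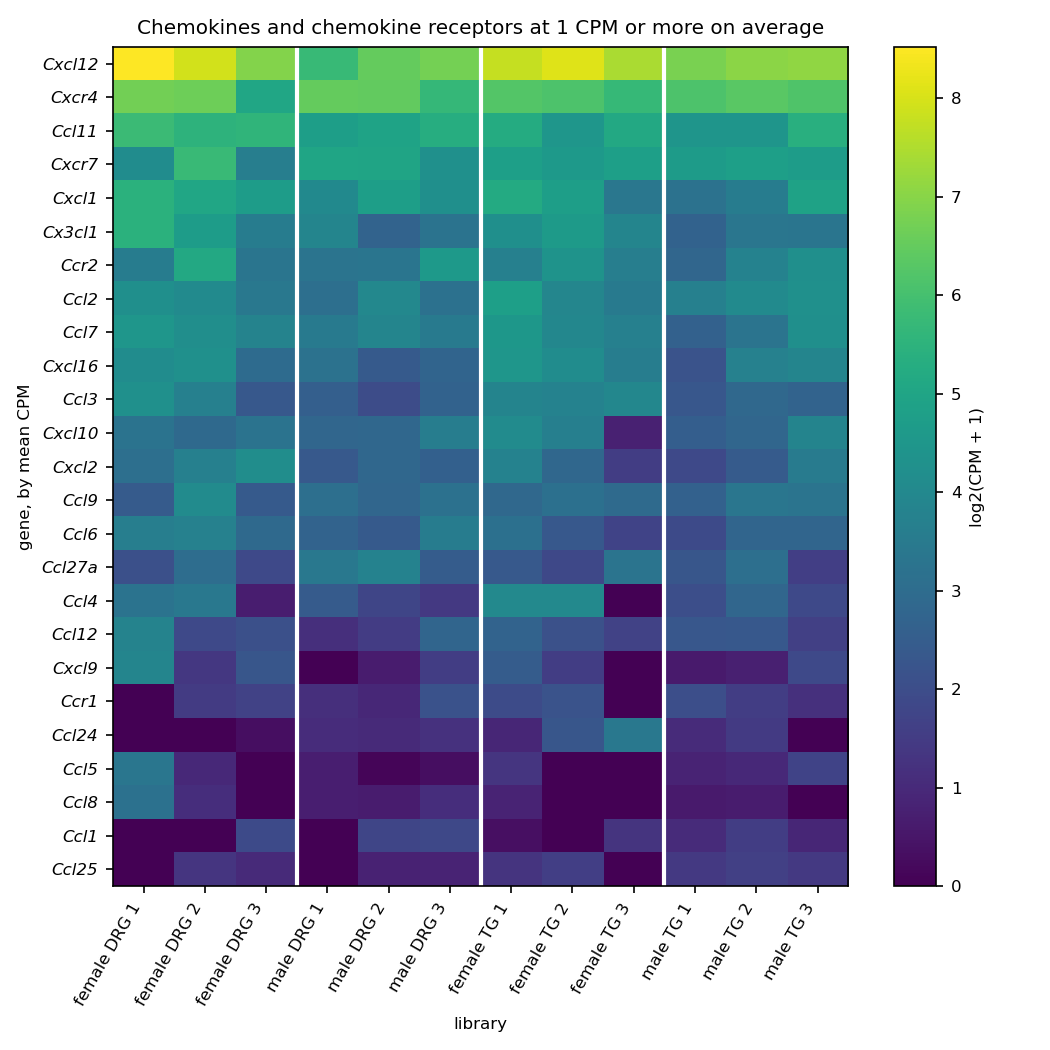
The colour gives log2(CPM + 1) of 25 of the 26 members at 1 CPM or more on average (rows, by falling mean) in the 12 libraries (columns, white lines between groups of 3). Cxcl12 leads every library but male DRG 1, where Cxcr4 is higher at 89.9 CPM against 51.9 CPM, and the rows from Cxcl9 down hold libraries at or near 0.

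The receptors of many detected ligands were close to 0 in the same libraries. Ccr3, the receptor of Ccl11 and Ccl24, had counts in 2 of 12 libraries and at most 24 counts. Cxcr2, the receptor of Cxcl1 and Cxcl2, had 6 counts in 1 library and none elsewhere. Cxcr6, the receptor of Cxcl16, had at most 20 counts and was at 0 in 6 libraries. Ccr10, the receptor of Ccl27a, reached 13 counts, Ccr8, the receptor of Ccl1, reached 10 counts, and Ccr9, the receptor of Ccl25, reached 7 counts. Pairs with both sides at 1 CPM or more included Cxcl12 with Cxcr4 and Cxcr7, Ccl2 and Ccl7 with Ccr2, and Ccl3 and Ccl5 with Ccr1, beside Cx3cl1 with Cx3cr1.

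Levels of different genes were compared per kilobase of exon, since longer transcripts give more reads. On that scale the order of the members changed. Cxcr4 came first at a mean of 40.6 CPM per kb, followed by the eosinophil chemoattractant Ccl11 at 31.9, the neutrophil chemoattractant Cxcl1 at 24.5, Cxcl12 at 20.6, Ccl7 at 17.3, Ccl2 at 12.6 and Ccl3 at 11.3 CPM per kb. Cxcr7 stood at 7.84, Cx3cl1 at 4.16 and Ccr2 at 2.28 CPM per kb. Exon lengths came from the annotation and not from the transcripts present, which limits this order.

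Of the 57 members, 56 were placed on build mm9 (all but Ccl28), and 12 of the 26 members at 1 CPM or more lie on chromosome 11. Of the latter, 11 form a pair of clusters. The first spans chr11:81849073-82119192 and holds Ccl2, Ccl7, Ccl11, Ccl12, Ccl8 and Ccl1, and 6 of its 6 members passed 1 CPM. The other spans chr11:83339280-83478185 with Ccl5, Ccl9, Ccl6, Ccl3 and Ccl4, and 5 of 5 passed. In contrast, a cluster on chromosome 4 (chr4:42391951-42787525) with Ccl21c, Ccl27b, Ccl19 and Ccl21a was at 0 for 4 of 4 members. On chromosome 5 the Cxcl1 and Cxcl2 neighbours Cxcl3 and Cxcl15 were at 0. Cxcl12 lies apart on chromosome 6 (chr6:117118553-117131385, plus strand), as do Cxcr4 (chr1:130484776-130488870, minus strand) and Cxcr7 (chr1:92100555-92113326, plus strand). Cx3cl1 (chr8:97295909-97306323, plus strand) lies between Ccl22 and Ccl17, both under 1 CPM. Ccl2, Cxcl16, Cxcl10, Ccl6 and Ccl27a overlap a gene on the opposite strand, and the strand setting of the counting was not stated, so their counts may hold reads of that partner.

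The sequences before the starts of 4 ligands are shown, since Cxcl12 and Cx3cl1 carry the sex contrasts below and Cxcl1 and Cxcl2 are neighbours that share a motif. They are the 250 bases upstream of the start given by RefSeq on build GRCm38.p6, 5′ to 3′ on the strand of the gene. A promoter was found for 41 members. Capitals mark the GC box GGGCGG (or CCGCCC on the other strand) in the first pair, and the NF-kappaB form GGAATTTCC in the second pair.
Cxcl12: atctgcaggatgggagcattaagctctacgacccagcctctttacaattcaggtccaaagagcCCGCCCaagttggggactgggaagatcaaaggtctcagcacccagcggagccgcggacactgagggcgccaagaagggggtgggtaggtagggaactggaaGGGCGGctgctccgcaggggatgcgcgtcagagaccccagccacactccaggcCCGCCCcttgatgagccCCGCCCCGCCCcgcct
Cx3cl1: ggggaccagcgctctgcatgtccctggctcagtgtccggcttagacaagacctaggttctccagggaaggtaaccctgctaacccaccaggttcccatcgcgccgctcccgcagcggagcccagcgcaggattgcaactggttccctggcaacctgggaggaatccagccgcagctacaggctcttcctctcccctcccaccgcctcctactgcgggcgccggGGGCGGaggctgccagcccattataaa
Cxcl1: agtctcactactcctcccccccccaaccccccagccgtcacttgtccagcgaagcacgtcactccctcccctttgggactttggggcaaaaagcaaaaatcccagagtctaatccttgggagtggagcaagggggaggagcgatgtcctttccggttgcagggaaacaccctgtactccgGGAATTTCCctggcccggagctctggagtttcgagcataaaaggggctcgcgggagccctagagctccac
Cxcl2: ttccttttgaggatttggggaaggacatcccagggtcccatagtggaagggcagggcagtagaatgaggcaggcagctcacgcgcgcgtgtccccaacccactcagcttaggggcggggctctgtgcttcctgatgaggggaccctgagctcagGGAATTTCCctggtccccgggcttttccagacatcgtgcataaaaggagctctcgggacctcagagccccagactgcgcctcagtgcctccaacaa
The stretches lie at chr6:117168285-117168534 (Cxcl12), chr8:94771930-94772179 (Cx3cl1), chr5:90890995-90891244 (Cxcl1) and chr5:90903649-90903898 (Cxcl2), and all 4 genes are on the plus strand. Cxcl12 held 5 GC boxes, of which a pair overlap, Cx3cl1 and Cxcl2 held 1 each (left in lower case in Cxcl2) and Cxcl1 held none. On either strand, GGGCGG was found in 10756 of 32851 promoters (32.7%) and in 8 of the 48 promoters of members. All motif shares were counted over the 250 bases before the start. GGAATTTCC, which reads GGAAATTCC on the other strand, began 70 bases before the start of Cxcl1 and 96 bases before that of Cxcl2. It was found in 94 of 32851 promoters (0.286%) and in 5 of the 48 promoters of members, those of Ccr3, Cxcl1, Cxcl2, Cxcl3 and Cxcl10. This spelling was chosen after others had been tried, and Cxcl3, which carries it, was at 0 counts. TATAAA was found in 12.4% of all promoters and in 13 of the 48. A match of letters is a description of the stretch and not a site in use.

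The TG against DRG contrast asked whether the fractions of the cranial and the spinal ganglia differ in these genes. No member passed the test. Of the 32 members with enough counts to be tested, 0 had an adjusted p under 0.05 by edgeR, where 0.965% of all 14824 genes did. DESeq2 called 0 as well, where it called 2.25% of all genes. With a fold above 2 added, 0 members passed against 0.769% of genes. At an unadjusted p under 0.05 there was 1 member, Ccl24, where the share of all genes was 8.84%. The 6 TG and 6 DRG libraries overlapped for every tested member, while 1.37% of genes had groups that did not overlap. The median log2 fold change (TG over DRG) was -0.10 for the members and -0.0078 for all genes, and 14 of the 32 were above 0, against 49% of genes.

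Cxcl12, which guides stem cells and neurons in development, was the most abundant member by CPM. It ran to 366, 245 and 121 CPM in female DRG, 51.9, 89.6 and 106 CPM in male DRG, 216, 276 and 172 CPM in female TG and 112, 130 and 138 CPM in male TG. Female libraries lay high in both ganglia, and the TG range sat inside the DRG range. The log2 fold change was 0.24 (95% interval -0.28 to 0.75, adjusted p = 0.930 by edgeR). It was -0.14 in the female libraries alone and 0.61 in the male libraries alone. By edgeR no member had an adjusted p under 0.05 in either, where 0.0358% and 0.414% of all genes did. Whether the sexes differed in this fold change is given by the interaction below.

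Its receptor Cxcr4 was measured at 104, 98.9 and 32 CPM in female DRG, 89.9, 88.8 and 50.1 CPM in male DRG, 74.4, 69.6 and 51.2 CPM in female TG and 69.3, 80.6 and 70.7 CPM in male TG. The DRG libraries spread on both sides of the TG libraries, with the lowest in female DRG 3. The log2 fold change was -0.16 (-0.70 to 0.37, adjusted p = 0.974 by edgeR). Cxcr7 was steadier in TG, at 22.8 to 27.1 CPM over the 6 libraries, than in DRG, where it ran from 11.5 to 53.1 CPM with the highest in female DRG 2. Its log2 fold change of -0.09 (-0.73 to 0.56, adjusted p = 0.99982 by edgeR) turned to 0.39 without that library.

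**Figure D2:**
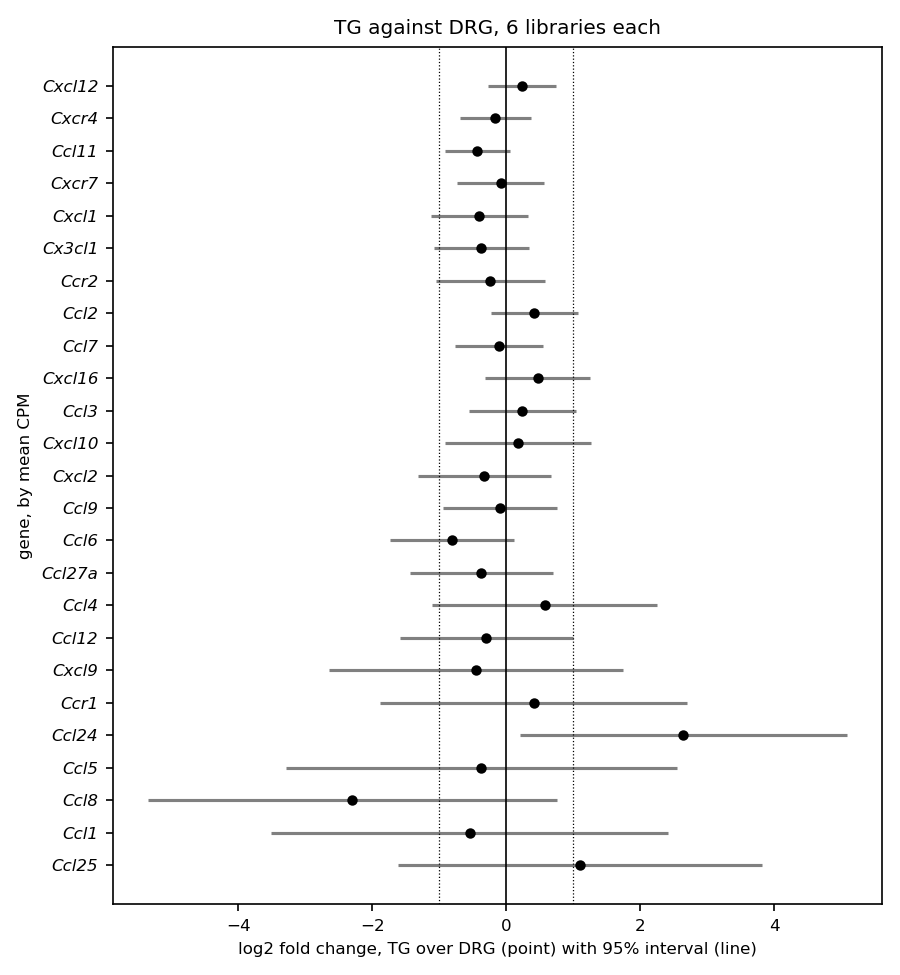
Points give the log2 fold change of TG over DRG for 25 of the 26 members at 1 CPM or more on average, lines its 95% interval, and dotted lines a fold of 2. The interval includes 0 for every member drawn but Ccl24, and 6 members have an interval that stays within a fold of 2 to either side.

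For 6 members the 95% interval stayed within a fold of 2 in either direction. These were Cxcl12, Cxcr4, Cxcr7, Ccl11, Ccl7 and Ccl9. The fitted log2 fold changes of the members named here ran from -2.30 (Ccl8) to 2.64 (Ccl24), both sparse genes.

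The monocyte chemoattractants Ccl2 and Ccl7 and their receptor Ccr2 had no shared direction. Ccl2 ran from 10.5 to 26.9 CPM in TG (median 14.9) and from 7.64 to 17.9 CPM in DRG (median 12.3), with a log2 fold change of 0.42 (-0.23 to 1.07). Ccl7 ran from 5.28 to 21.6 CPM in TG (median 13.1) and from 10.3 to 21.1 CPM in DRG (median 13.2), with a log2 fold change of -0.11 (-0.77 to 0.55). Ccr2, carried by inflammatory monocytes, ran from 6.1 to 19.8 CPM in TG (median 12.4) and from 8.76 to 34.5 CPM in DRG (median 10), with its highest values in female DRG 2 and male DRG 3. Its log2 fold change was -0.24 (-1.05 to 0.58), and it turned to 0.20 without female DRG 2 and to 0.07 without male DRG 3.

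The ligands of Ccr1 lay near each other in the 2 ganglia. Ccl3 ran from 3.92 to 14.5 CPM in TG (median 9.52) and from 2.91 to 18.3 CPM in DRG (median 5.19), with a log2 fold change of 0.24 (-0.56 to 1.04). Its neighbour Ccl4 ran from 0 to 15.1 CPM in TG and from 0.593 to 9.58 CPM in DRG (0.57, -1.11 to 2.25). Female TG 3 was at 0 for Ccl4 while it held 14.5 CPM of Ccl3, the highest TG value of that gene. Ccl5 stayed at or below 2.26 CPM in every library but female DRG 1 (9.26 CPM). Its log2 fold change of -0.38 turned to 1.02 without that library. Ccr1 ran from 0 to 3.53 CPM in TG and from 0 to 3.46 CPM in DRG (0.41, -1.88 to 2.70).

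Among the neutrophil-attracting ligands, Cxcl1 ran from 8.2 to 35.9 CPM in TG (median 18.5) and from 15.5 to 42.8 CPM in DRG (median 25.9), with a log2 fold change of -0.40 (-1.13 to 0.32). Cxcl2 ran from 1.89 to 12.7 CPM in TG (median 5.38) and from 4.19 to 17.1 CPM in DRG (median 6.96), with -0.33 (-1.31 to 0.66). Both were spread widely in TG, where female TG 3 and male TG 1 were low for each. The neutrophil markers tested (6 of 8) were lower in TG for 6 of 6, with a median of -2.61, and their sums ran from 0.0801 to 15.1 CPM in TG and from 11.6 to 127 CPM in DRG. The part of neutrophils in the ligands' values was not tested.

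The eosinophil-attracting ligands Ccl11 and Ccl24 had fitted fold changes of opposite sign over all libraries, and neither was called. Ccl11 was at 54.4, 44.9 and 46.9 CPM in female DRG, 26.1, 29.4 and 38.6 CPM in male DRG, 36.7, 21.5 and 34.3 CPM in female TG and 20.6, 20.8 and 40.3 CPM in male TG. The female DRG libraries lay above the rest, and the log2 fold change was -0.44 (-0.92 to 0.05, adjusted p = 0.638 by edgeR). Ccl24 was at 0, 0 and 0.254 CPM in female DRG, 1.12, 1.03 and 1.34 CPM in male DRG, 0.887, 3.85 and 9.59 CPM in female TG and 1.09, 1.73 and 0 CPM in male TG. Its highest values were thus in female TG 3 and female TG 2, and the female DRG libraries were at 0 or, at 0.254 CPM (3 counts), at the floor. The log2 fold change was 2.64 (SE 1.16, adjusted p = 0.502 by edgeR). It depends on the handling of counts of 0, and it was -0.30 in the male libraries alone.

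The interferon-induced ligands Cxcl9 and Cxcl10 bind Cxcr3 on activated T cells. Cxcl10 ran from 0.708 to 16.2 CPM in TG (median 8.98) and from 5.96 to 11.2 CPM in DRG (median 7.47), with a log2 fold change of 0.17 (-0.91 to 1.26) and its lowest value in female TG 3. Cxcl9 ran from 0 to 4.61 CPM in TG and from 0 to 13.7 CPM in DRG, the highest being female DRG 1 (-0.45, -2.64 to 1.74). Without female DRG 1 the value of Cxcl9 was 0.16, and without male DRG 3 it was 0.30.

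Cx3cl1, made by neurons and endothelium, ran from 5.46 to 23.7 CPM in TG (median 11.4) and from 5.54 to 42.6 CPM in DRG (median 12.3), with a log2 fold change of -0.38 (-1.09 to 0.33, adjusted p = 0.900 by edgeR). Its receptor Cx3cr1 ran from 14.8 to 61.7 CPM in TG (median 28.3) and from 7.51 to 44.4 CPM in DRG (median 15.2), with 0.64 (-0.03 to 1.31, adjusted p = 0.599 by edgeR). Cxcl16, a membrane-anchored scavenger receptor and chemokine, ran from 3.55 to 21.5 CPM in TG (median 13) and from 4.32 to 18.2 CPM in DRG (median 7.57), with 0.47 (-0.31 to 1.25). None of the 3 genes passed the test, and the ranges overlapped for each. Of the macrophage markers, 10 of 10 had a fold change above 0 like Cx3cr1, with a median of 0.43, and their summed level was 131.6 to 485.9 CPM in TG (median 262.2) and 149.7 to 352.3 CPM in DRG (median 172.9). The part of these cells in the value of Cx3cr1 was not tested.

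Of the remaining ligands, Ccl6 ran from 2.28 to 7.89 CPM in TG (median 4.95) and from 4.32 to 12.4 CPM in DRG (median 8.77), with a log2 fold change of -0.81 (-1.74 to 0.11, adjusted p = 0.658 by edgeR). Ccl9, close kin of Ccl6, ran from 5.19 to 9.21 CPM in TG (median 7.27) and from 4.32 to 16.1 CPM in DRG (median 6.87), with -0.09 (-0.94 to 0.76). Ccl27a ran from 1.96 to 8.81 CPM in TG and from 2.71 to 12.7 CPM in DRG (-0.37), and the monocyte attractant Ccl12 from 2.06 to 5.59 CPM and from 1.21 to 12.9 CPM (-0.30). Of the sparse genes, Ccl8 ran from 0 to 0.798 CPM in TG and from 0 to 8.07 CPM in DRG, Ccl1 from 0 to 1.94 and from 0 to 2.79 CPM, and Ccl25, a thymus and gut ligand, from 0 to 2.08 and from 0 to 1.51 CPM. Female DRG 1 alone held the high DRG values of Ccl8 and Ccl12. The value of Ccl12 turned from -0.30 to 0.25 without it, and that of Ccl8 moved from -2.30 to -1.10.

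Other genes of the pathway were counted from a list of scavenging and related receptors, ligands without a family symbol, sheddases and signalling proteins. Of 38 in the files, 36 were tested between the ganglia. By edgeR 0 had an adjusted p under 0.05, where 0.965% of all genes did, and by DESeq2 0 as well, where 2.25% did. At an unadjusted p under 0.05 there were 2 (5.56%, against 8.84% of all genes). Plcb3, a phospholipase downstream of G proteins, had a log2 fold change of -0.57 (132 CPM in TG, 191 CPM in DRG, adjusted p = 0.216 by edgeR), and Elmo1, which works with Dock2 in cell migration, had 0.56 (114 and 77.7 CPM, adjusted p = 0.395).

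The study was designed around the sexes, and within each ganglion the same members were compared between female and male libraries (log2 fold change, female over male). Its criteria were a fold above 2, an unadjusted p under 0.05 and an RPKM above 1. Here CPM stood in place of RPKM, and the level was asked of the sex with the higher mean. Cx3cl1, Ccl3 and Cxcl12, with Cx3cr1 and Cmklr1 of the pathway list, are among genes that the study itself picked from these libraries, so their direction is not independent evidence.

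In TG, 2 of 27 members tested met the criteria (7.41%), Ccl3 and Cx3cl1, both higher in females, where 7.38% of all genes did (5.14% with females higher). The members' share was thus near that of all genes. None passed an adjusted p under 0.05 by edgeR, where 0 of all 14004 genes did. At an unadjusted p under 0.05 there were 3 (Ccl3, Cx3cl1 and Cxcl12, 11.1% against 20.7% of all genes). DESeq2 called the 3 at adjusted p under 0.05, where it called 5.34% of all genes. Fold changes were above 0 for 21 of 27 members, against 52.9% of genes, with a median of 0.27 against 0.05. These 3 were also the members whose sexes did not overlap (11.1%, against 23.8% of all genes, and 11.3% with females higher).

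Ccl3 (MIP-1 alpha) was at 13.5, 12.7 and 14.5 CPM in female TG and at 3.92, 6.3 and 5.49 CPM in male TG, so that every female library was above every male one. Its log2 fold change was 1.42 (SE 0.38, adjusted p = 0.154 by edgeR). Cx3cl1 was at 18, 23.7 and 13.6 CPM in female TG and at 5.46, 9.14 and 8.83 CPM in male TG. The sexes did not overlap, and the log2 fold change was 1.29 (SE 0.37, adjusted p = 0.154 by edgeR). Cxcl12, at the values given above, also did not overlap, and its log2 fold change of 0.86 (SE 0.25, adjusted p = 0.154 by edgeR) was under the fold criterion. Its receptors lay close between the sexes, with log2 fold changes of -0.13 (-0.65 to 0.40) for Cxcr4 and 0.05 (-0.50 to 0.61) for Cxcr7. The count of 2 rose to 5 without female TG 1, where 5.94% of all genes met the criteria and Ccl5 and Cxcr6 were higher in males, and to 5 without male TG 3, where 11.1% did. Ccl3 and Cx3cl1 met them in each. Without female TG 3, 4 members passed the adjusted p (Ccl3, Ccl4, Cx3cl1 and Cxcl12), but so did 23.6% of all genes. A correction for GC content and length, added after the data were seen, took Cx3cl1 to 0.65 and below the criteria and brought in Ccl7, Ccl11 and Ccl24.

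**Figure D3:**
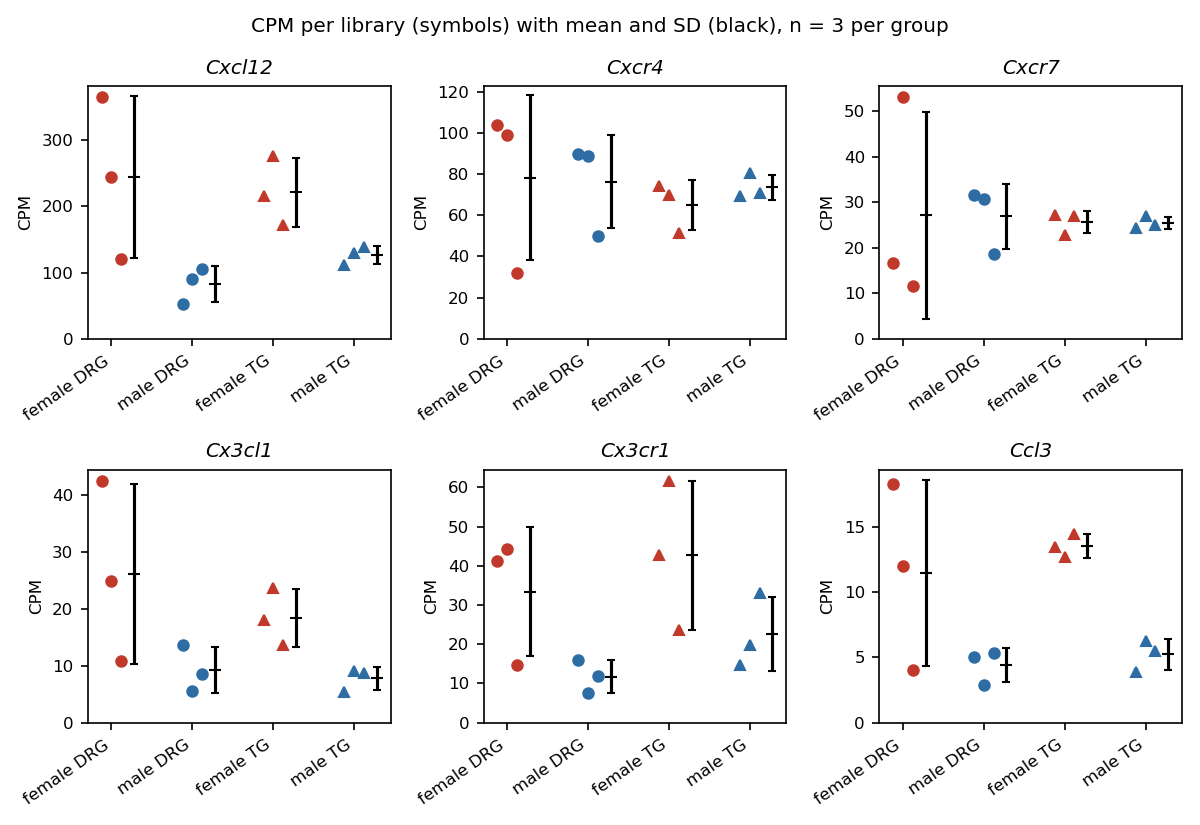
Each symbol is the CPM of 1 library (circles DRG, triangles TG, red female, blue male), with the mean and SD of the 3 libraries of a group in black, on axes that start at 0. The female libraries of Cxcl12 lie above the male ones in both ganglia, while Cxcr4 and Cxcr7 overlap between the sexes.

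In DRG, 4 of 26 members met the criteria (15.4%), where 4.94% of all genes did and 2.01% did with females higher. These were Cxcl12, Cx3cl1, Cxcl2 and Cxcl16, each higher in females. None passed an adjusted p under 0.05 by edgeR, where 0 of all 13958 genes did. At an unadjusted p under 0.05 there were 4 (15.4%, against 11.8% of all genes). DESeq2 called Cxcl12 alone at adjusted p under 0.05, where it called 2.27% of all genes. Fold changes were above 0 for 21 of 26 members, against 51.4% of genes, with a median of 0.56 against 0.02. The sexes did not overlap for 4 members (15.4%, against 17.4% of all genes), with Cxcl12, Cxcl2 and Ccl11 higher in females (7.82% of all genes) and Ccl24 higher in males (9.63% of all genes).

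Cxcl12 was at 121 to 366 CPM in female DRG and at 51.9 to 106 CPM in male DRG. The sexes did not overlap, and the log2 fold change was 1.57 (SE 0.41, adjusted p = 0.307 by edgeR). It met the criteria whichever single library was left out. Cx3cl1 was at 42.6, 24.9 and 10.9 CPM in females and at 13.7, 5.54 and 8.58 CPM in males, so that the sexes overlapped, and its log2 fold change was 1.50 (SE 0.53, adjusted p = 0.328 by edgeR). Its receptor Cx3cr1 met the criteria too, at 41.3, 44.4 and 14.6 CPM in females and at 15.9, 7.51 and 11.8 CPM in males (log2 fold change 1.51, adjusted p = 0.309 by edgeR). In TG Cx3cr1 was at 42.7, 61.7 and 23.7 CPM in females and at 14.8, 19.7 and 33 CPM in males (0.98, adjusted p = 0.211).

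The other members that met the criteria in DRG did so narrowly. Cxcl2 was at 7.72, 12.2 and 17.1 CPM in females and at 4.19, 6.2 and 5.12 CPM in males, without overlap, and its log2 fold change was 1.26 (SE 0.55, adjusted p = 0.399 by edgeR). Cxcl16 was at 16.5, 18.2 and 6.94 CPM in females and at 8.2, 4.32 and 5.67 CPM in males, with overlap (1.20, SE 0.55, adjusted p = 0.422 by edgeR). Ccl3, which met the criteria in TG, was at 18.3, 12 and 4.06 CPM in female DRG and at 5.03, 2.91 and 5.35 CPM in male DRG, with overlap (1.37, SE 0.67, adjusted p = 0.441 by edgeR). Cxcl12 was left as the member meeting the criteria when male DRG 2 was left out (1 member, with 2.58% of all genes), and Cxcl12 and Cxcl2 when female DRG 1 was left out (2 members, with 4.31% of all genes). Without female DRG 3, 5 members met them, where the share of all genes rose to 11%. Without female DRG 1 the fold change of Cx3cl1 was 0.94 and that of Cxcl16 1.05, and neither had an unadjusted p under 0.05 in the edgeR fit. With single libraries left out, Cxcl2 kept the criteria without female DRG 1 and lost them without any of the other 5 libraries, and Cxcl16 kept them without female DRG 3 or male DRG 1 and lost them without any of the other 4. With the GC and length correction 10 members met the criteria, these 4 among them with Ccl2, Ccl3, Ccl7, Ccl11, Cxcl1 and Cxcl9, each higher in females, while the share of all genes fell to 3.21%.

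**Figure D4:**
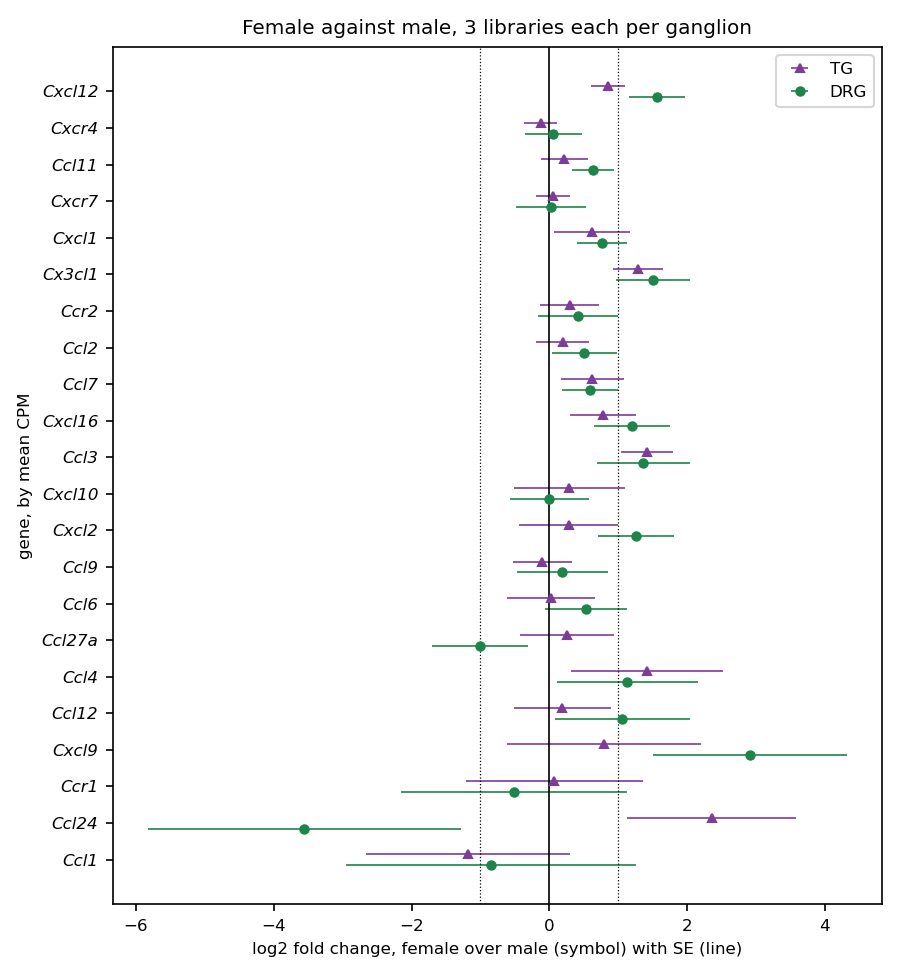
Symbols give the log2 fold change of female over male in TG (purple triangles) and DRG (green circles) with its SE for 22 of the 23 members at 1 CPM or more that were tested in both ganglia, and dotted lines mark a fold of 2. Of these, 16 lie above 0 in both ganglia, and Ccl24 lies far to the right in TG and far to the left in DRG with long error lines.

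Of the 23 members at 1 CPM or more that were tested for sex in both ganglia, 17 were higher in females in both and 1, Ccl1, was higher in males in both, all by the sign of the fit alone. Some of these fold changes were near 0, such as those of Cxcl10 in DRG (0.0023) and Ccl6 in TG (0.03). That of Ccl1 had an SE of 1.48 in TG and 2.11 in DRG. The share of all genes with the same sign in both ganglia was not counted. Summed ligand levels were 310.7 to 471.9 CPM in female TG and 206.6 to 328.2 CPM in male TG, and 291 to 672.4 CPM in female DRG and 182.7 to 258.8 CPM in male DRG. The sums did not overlap between the sexes in DRG and overlapped in TG. Receptor sums were 108.9 to 147.9 CPM in female TG against 113.7 to 154.4 CPM in male TG, and 62.49 to 217.6 CPM in female DRG against 118.4 to 138 CPM in male DRG. The sums of both sexes overlapped for the receptors.

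Other measures also moved with sex in the same libraries, though not all in the same direction. Endothelial markers were higher in females for 7 of 7 in DRG, of which 4 met the criteria (4.94% of all genes did), with sums of 334.1 to 645.2 CPM against 198.5 to 347.3 CPM in males. In TG, 5 of 7 were higher in females, with sums of 389 to 621.6 CPM against 318.1 to 445.3 CPM. Macrophage markers were higher in females for 10 of 10 in TG (3 met the criteria, which 7.38% of all genes did) and 9 of 10 in DRG (1 met them). Fibroblast markers were higher in females for 6 of 6 in each, with medians of 0.85 in TG (3 met the criteria) and 0.70 in DRG (1 met them). Schwann cell markers were higher in females for 6 of 7 in each, with medians of 0.93 in TG (2 met the criteria) and 0.50 in DRG (0 met them). Pericyte and smooth muscle markers were higher for 3 of 4 in TG and 4 of 4 in DRG, and 1 met the criteria in each. Neuron markers had medians of 0.17 in TG and -0.10 in DRG. Neutrophil markers were higher in females for 0 of 3 in TG and 1 of 5 in DRG, with medians of -1.58 and -0.87. T cell markers were higher for 1 of 2 in TG and 0 of 2 in DRG, where 1 met the criteria with males higher. Mast cell markers were higher for 3 of 5 in TG and 2 of 5 in DRG, and satellite glia markers for 1 of 3 and 2 of 3. B cell markers were higher for 2 of 2 in DRG. Reads outside annotated genes made up 43.5% to 50.4% of reads in and outside genes in female libraries and 37.6% to 47.9% in male ones, and the Wilson 95% interval of each library reached no further than 0.0252 percentage points. The part of these cells and of this measure in the female excess was not tested.

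Of the pathway list, 4 of 34 genes met the criteria in TG (11.8%, against 7.38% of all genes and 5.14% with females higher), each higher in females. Gnai2, a Gi alpha subunit, was at 121 CPM in females against 58.6 CPM in males, and Adrbk1, the receptor kinase GRK2, was at 78.8 against 36.9 CPM. Cmklr1, the receptor of chemerin, was at 7.64 against 1.79 CPM, and Vav1, an exchange factor of blood cells, at 5.86 against 2.02 CPM. In DRG, 3 of 35 met them (8.57%, against 4.94% of all genes). Besides Cx3cr1 these were Ppbp, a platelet chemokine, at 4.77 CPM in females against 0.398 CPM in males, and Mif, at 42.1 CPM in females against 86.6 CPM in males, the only one of the 7 higher in males. Adjusted p by edgeR was under 0.05 for 0 of the list in either ganglion, as for 0 of all genes. At an unadjusted p under 0.05 there were 12 genes of the list in TG (35.3%, against 20.7% of all genes) and 4 in DRG (11.4%, against 11.8%). DESeq2 called 4 in TG and 0 in DRG, where it called 5.34% and 2.27% of all genes.

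Whether the sex effect differed between TG and DRG was tested by the interaction. Of 32 members, 0 had an adjusted p under 0.05 by edgeR and 0 by DESeq2, with 0 of all genes by either tool. Ccl24 alone had an unadjusted p under 0.05 (adjusted p = 0.99983 by edgeR), where 1.97% of genes did. Its counts in female DRG were at 0 in 2 libraries, so the size of that difference is not given. For Cxcl12 the sex effect in TG minus that in DRG was -0.76 (-1.78 to 0.26), for Cx3cl1 -0.26 (-1.67 to 1.16), for Ccl3 0.01 (-1.67 to 1.68) and for Cxcl2 -1.03 (-3.00 to 0.94), all on the log2 scale. A member that met the criteria in 1 ganglion and not in the other was therefore not shown to differ between them.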

How the data were processed

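RNA of 12 libraries was sequenced as single short reads after ribosomal RNA depletion and dUTP stranded library preparation. The authors aligned the reads to mm9 with TopHat2 and counted them with HTSeq. The deposited values are unnormalized read counts for 22609 gene symbols, and 5 summary lines were left out here. Versions, annotation and strand setting are not given in the sources used here. Depth was 7511765 to 15396090 reads in genes, and the floor was 3 counts, for counting error only.

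Counts were analysed with edgeR 4.0.16 (filterByExpr, TMM, quasi-likelihood F-test, Benjamini-Hochberg over all genes tested) in R 4.3.3. TG against DRG and the interaction came from 1 model of 12 libraries with 4 group means, and sexes were compared within the 6 libraries of a ganglion. Intervals are 95%. The 6 sex-check genes were left out of the shares of all genes. The scripts were tested on simulated data. Positions and exon lengths came from the mm9 GENCODE annotation, and motifs from RefSeq promoters. Named were members at 1 CPM or more on average or called in any comparison, the 5 just below, their ligands and receptors, Cx3cr1 and called pathway genes. The values of 1 receptor that met this rule are not reported here, though it stays in the counts. Members and lists were chosen with earlier results of these data known. Group and replicate came from sample titles. Alternatives were other scalings and filters, DESeq2 1.42.0, a replicate block, single sexes, left-out libraries, and a GC and length correction.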

Additional observations from a re-analysis of the deposited data

Results flagged for a closer look

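In the 6 libraries of a ganglion, 1 library stood far from the others for 5 members, of 52 sets of 6 values examined. The rule used flags about 1 in 20 sets when all values come from the same normal distribution. These sets mix both sexes and some hold values near 0, so that rate need not apply to them. In DRG, Ccl5 was at 9.26 CPM in female DRG 1 and at most 0.975 CPM elsewhere, Ccl8 was at 8.07 CPM in female DRG 1 and at most 1.18 CPM elsewhere, and Cxcl9 was at 13.7 CPM in female DRG 1 and at most 3.81 CPM elsewhere. Ccl9 was at 16.1 CPM in female DRG 2, with the next DRG library at 8.11 CPM. In TG, Ccl25 was at 0 CPM in female TG 3 and at least 1.42 CPM in the other libraries.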

How the results depend on the processing

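Under the 22 alternatives of the TG against DRG comparison, 0 members passed the adjusted p in each, where 0.0358% to 3.6% of all genes did. The interaction likewise gave 0, for the members and for all genes. The number of members at 1 CPM or more was 26 on raw totals, 23 by the median over libraries, 20 at 2 CPM, and 24 to 26 with a library left out. Members meeting the criteria in TG numbered 2 to 5 with a library left out, and in DRG 1 to 5. Members at adjusted p under 0.05 in TG numbered 0 to 4 with a library left out. By DESeq2 there were 3 in TG and 1 in DRG. With the GC and length correction, chosen after seeing the data, 4 met the criteria in TG and 10 in DRG, while the share of all genes was 2.09% and 3.21%. Leaving out the scaling factors moved the median of all genes to 0.16 in TG and 0.19 in DRG.

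Same-numbered libraries did not deviate together throughout (correlations of 0.0281 to 0.216 between ganglia, -0.0984 to 0.00973 between sexes in TG and 0.0316 to 0.168 in DRG), so the numbers were not taken as pairs. With the replicate block, 2 members met the criteria in DRG, the share of all genes called between the ganglia rose from 0.964% to 3.6%, and the log2 fold changes of TG over DRG turned for Cxcr7 (0.087), Cxcl10 (-0.13), Ccl9 (0.041), Ccl5 (0.0024) and Ccl1 (0.53), and of sex in DRG for Cxcr4 (-0.081) and Cxcr7 (-0.26).

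Other uncalled fold changes of TG over DRG that turned were Cxcl12 (-0.14) and Ccl27a (0.24) in female libraries alone, and Cxcl2 (0.19), Ccl9 (0.073), Ccl12 (0.14) and Ccl24 (-0.30) in male libraries alone. Without both female DRG 1 and female TG 3, also chosen after seeing the data, Cxcr4 (0.039), Ccl7 (0.061), Ccl12 (0.38), Cxcl9 (0.45) and Ccl5 (1.31) turned. With the GC and length correction Ccl7 (0.17) turned, and Cxcr4 by sex in TG (0.49). With 1 library left out, values ran from -0.27 to 0.39 for Cxcr7, -0.43 to 0.20 for Ccr2, -0.41 to 0.053 for Ccl7, -0.13 to 0.45 for Cxcl10, -0.24 to 0.38 for Ccl9, -0.51 to 0.25 for Ccl12, -1.03 to 0.30 for Cxcl9, -3.14 to 1.02 for Ccl5 and -1.55 to 2.68 for Ccl1 (TG over DRG). Female over male they ran from -0.53 to 1.01 for Cxcl2 and -0.032 to 0.092 for Cxcr7 in TG, and from -0.22 to 0.43 for Cxcr4 and -0.91 to 0.39 for Cxcr7 in DRG. The causes were not tested.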
